A study of Mus musculus with 10 samples.

Results

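The ephrins, Eph receptors, semaphorins, plexins, neuropilins, netrins, slits and their receptors were followed in forelimb-bud ectoderm of mouse (Mus musculus) embryos labelled as double knockouts of Sp8 and Sp6. Members were taken by their gene symbols and came to 69 of the 55401 genes in the deposited count table. Of these, 65 had a count in at least 1 library, and 58 passed the filter on low counts and were tested. The 3 double knockout (DKO) libraries came from these embryos, and the 3 wild-type (WT) libraries from littermates, all at E9.75, a stage given in days of embryonic development. The labels do not give the alleles, the strain, or which embryo or litter a library came from, and p-values therefore cover only the differences among these samples, which may be technical in part. Each library took the ectoderm of about 2 buds, peeled off after 20 min in 0.25% trypsin, and was made from full-length cDNA (SMART-Seq v4, Nextera XT) without strand information or molecular identifiers. The deposited columns are called DKO 17, DKO 40, DKO 41, WT 32, WT 53 and WT 56, and values below follow that order.

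These families steer migrating cells and growing axons and keep cell populations apart. Ephrins are membrane-bound ligands, and because both ligand and Eph receptor sit on cells, contact can signal in both directions. Semaphorins are secreted or membrane-bound ligands of the plexins, and the secreted class 3 members mostly need a neuropilin as co-receptor. Netrins are laminin-related secreted proteins that attract through Dcc and repel through Unc5 receptors, and slits are secreted ligands of the Robo receptors. The limb ectoderm is the epithelium around the bud, whose distal rim forms the apical ectodermal ridge. Sp8 and Sp6 are zinc-finger transcription factors of a family known for binding GC boxes.

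Promoter windows are shown for the called members that have one, because the transcription factors targeted belong to the GC-box-binding family. RefSeq windows of GRCm38.p6, from 250 bases before to 50 bases after a transcript start, were found for 59 of the 69 members; where a gene had several, the one nearest its annotated 5′ end was taken. The letters GGGCGG, the core of a GC box, were searched on both strands, with overlapping matches counted, and stand in capitals as GGGCGG or CCGCCC. Each sequence runs 5′ to 3′ on the strand of its gene.
Efna1, chr3:89280902-89281201, minus strand: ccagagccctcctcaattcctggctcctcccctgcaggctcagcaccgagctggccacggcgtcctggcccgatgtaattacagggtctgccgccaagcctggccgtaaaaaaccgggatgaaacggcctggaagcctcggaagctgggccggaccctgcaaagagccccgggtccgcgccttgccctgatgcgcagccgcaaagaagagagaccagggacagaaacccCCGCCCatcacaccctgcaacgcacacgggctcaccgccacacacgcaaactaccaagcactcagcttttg
Epha1, chr6:42373219-42373518, minus strand: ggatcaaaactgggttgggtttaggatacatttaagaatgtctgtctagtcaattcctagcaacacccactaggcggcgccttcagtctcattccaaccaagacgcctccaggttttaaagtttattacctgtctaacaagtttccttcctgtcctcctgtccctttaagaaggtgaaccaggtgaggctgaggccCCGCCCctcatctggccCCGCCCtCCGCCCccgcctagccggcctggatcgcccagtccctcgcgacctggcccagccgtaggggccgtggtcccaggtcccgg
Epha2, chr4:141300971-141301270, plus strand: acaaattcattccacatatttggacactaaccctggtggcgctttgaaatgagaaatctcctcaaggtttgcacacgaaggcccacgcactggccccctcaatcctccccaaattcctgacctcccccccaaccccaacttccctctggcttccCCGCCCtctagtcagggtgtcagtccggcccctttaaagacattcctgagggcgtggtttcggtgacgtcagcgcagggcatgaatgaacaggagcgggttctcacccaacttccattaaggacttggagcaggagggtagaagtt
Plxnc1, chr10:94944796-94945095, minus strand: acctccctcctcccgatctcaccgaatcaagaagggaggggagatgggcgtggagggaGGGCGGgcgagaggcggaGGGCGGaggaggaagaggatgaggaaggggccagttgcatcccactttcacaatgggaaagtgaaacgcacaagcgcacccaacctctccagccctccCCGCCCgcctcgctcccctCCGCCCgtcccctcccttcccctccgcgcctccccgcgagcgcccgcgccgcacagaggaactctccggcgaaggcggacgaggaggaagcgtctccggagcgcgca
Sema4a, chr3:88461133-88461432, minus strand: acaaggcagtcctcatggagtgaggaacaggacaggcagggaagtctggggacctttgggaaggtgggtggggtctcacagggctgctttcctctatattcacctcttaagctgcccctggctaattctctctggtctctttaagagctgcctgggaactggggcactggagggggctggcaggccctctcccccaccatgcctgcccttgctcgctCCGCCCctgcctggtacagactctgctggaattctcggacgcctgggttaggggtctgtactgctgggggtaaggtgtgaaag
Sema6d, chr2:124089719-124090018, plus strand: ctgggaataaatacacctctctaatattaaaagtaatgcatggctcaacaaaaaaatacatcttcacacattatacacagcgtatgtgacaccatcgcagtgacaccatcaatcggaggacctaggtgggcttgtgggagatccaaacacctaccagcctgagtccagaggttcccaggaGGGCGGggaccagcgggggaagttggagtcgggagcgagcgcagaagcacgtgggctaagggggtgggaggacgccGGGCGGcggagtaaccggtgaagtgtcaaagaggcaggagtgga
Unc5a, chr13:54949161-54949460, plus strand: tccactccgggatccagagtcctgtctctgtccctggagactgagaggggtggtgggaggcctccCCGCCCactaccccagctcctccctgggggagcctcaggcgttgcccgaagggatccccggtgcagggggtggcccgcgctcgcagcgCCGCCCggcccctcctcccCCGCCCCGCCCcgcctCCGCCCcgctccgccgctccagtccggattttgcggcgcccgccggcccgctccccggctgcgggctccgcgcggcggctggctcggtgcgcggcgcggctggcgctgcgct
Unc5a had 5 matches, of which the third and the fourth overlap by a base, Plxnc1 had 4, Epha1 had 3, Sema6d had 2, and the other sequences had 1 each. Among members tested and not called, 30 of 43 windows (69.8%) held it, and over all members 43 of 59 (72.9%). Of all 32851 RefSeq windows, 35.7% held it. These windows belong to 27025 gene symbols, with several windows for some genes, while each member has a single window, so the shares are of unlike sets. The windows also differed in base composition, with a median GC content of 65% in the members' windows and 52.7% in all windows. The letters GGGTGG stood in 3 of the 7 windows of called members, in 32 of 59 member windows (54.2%) and in 31.5% of all windows. The homeodomain core TAATTA stood in 1 of the 7, that of Efna1, in 3 of 59 (5.08%) and in 5.29% of all windows. A match describes the letters in the window and is no measure of binding.

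The libraries held 64432348 to 87040786 counts. Levels are CPM, counts per library total after TMM scaling, a correction for differences in library composition, and are divided by kilobases of exon (CPM per kb) wherever genes are compared. Sp8 had 5.86, 2.38 and 2.80 CPM in the DKO libraries, against 34.1, 43.2 and 31.3 CPM in the WT libraries (log2 fold change -3.29, adjusted p = 0.000806 in edgeR's quasi-likelihood test). Sp6 had 133, 13.9 and 76.9 CPM in the DKO libraries, against 228, 312 and 319.9 CPM in the WT libraries and did not pass the test (log2 fold change -1.94, adjusted p = 0.207); 3329 of its exon bases overlap Gm11532 on the opposite strand, and the labels do not say which part of either gene is deleted. The summed level of 15 ectoderm markers was 3076 to 4167 CPM in the DKO libraries, against 4277 to 4713 CPM in the WT libraries. Of these 15, Epcam and Cdh1 were called lower and Krt8 and Krt19 higher. The DKO libraries lay wholly below the WT libraries in 7 of the 15 and wholly above in 2. For these and the marker lists below, the shares over all 19126 genes tested were 21.9% separated in either direction and 4.51% called. Krt19 had 511, 280 and 435 CPM in the DKO libraries, against 157, 138 and 160 CPM in the WT libraries (adjusted p = 0.00596, edgeR). Krt5 had 12.7, 8.09 and 65.0 CPM in the DKO libraries, against 320, 254 and 363 CPM in the WT libraries and was not called (adjusted p = 0.0635, edgeR). The summed level of 15 apical ridge markers was 332 to 656 CPM in the DKO libraries, against 2324 to 2882 CPM in the WT libraries, with 10 called lower and Fgf8, the leading ridge signal, at 13.5, 0.261 and 0.930 CPM in the DKO libraries, against 1181, 1209 and 1387 CPM in the WT libraries. The summed level of 14 limb mesenchyme markers was 1279.7 to 1785 CPM in the DKO libraries, against 909 to 1123 CPM in the WT libraries, 2 of them called higher and 1 lower. Msx1, which was not called, was the largest part of this sum in each library. It had 1185, 799 and 536 CPM in the DKO libraries, against 282, 498 and 393 CPM in the WT libraries. Meis1 and Meis2 were the 2 called higher, and Pdgfra, at 2.57, 10.1 and 10.3 CPM in the DKO libraries, against 67.8, 37.4 and 94.5 CPM in the WT libraries (adjusted p = 0.00696, edgeR), was the one called lower. Of the 13 tested, the DKO libraries lay wholly above the WT libraries in 6 and wholly below in 2. Among the 6, Twist2 had 12.3, 67.1 and 26.1 CPM in the DKO libraries, against 7.39, 2.31 and 0.549 CPM in the WT libraries. Twist2 was not called (adjusted p = 0.0780, edgeR), and neither were Twist1 and Prrx2 of the same 6. Prrx1, a defining mesenchyme marker, had 3.51, 23.3 and 12.8 CPM in the DKO libraries, against 29.0, 1.61 and 0.412 CPM in the WT libraries and was not called; WT 32 stood apart from the other WT libraries and near DKO 40. The summed level of 10 red blood cell genes was 27.1, 127 and 919 CPM in the DKO libraries, against 0.116, 301 and 0 CPM in the WT libraries. It was highest in DKO 41, and WT 53 came next. Among 12 endothelial genes Cdh5 had no count and Egfl7 made up most of the sum, 55.3 to 79.7 CPM in the DKO libraries, against 35.0 to 49.0 CPM in the WT libraries. The one endothelial gene called was Sox17, higher at 7.96, 4.16 and 1.83 CPM in the DKO libraries, against 0.0579, 0.300 and 0.229 CPM in the WT libraries (adjusted p = 0.0123, edgeR). Among 12 neural and neural crest genes Foxd3 had no count, and the sum was 57.6 to 62.3 CPM in the DKO libraries, against 128 to 167 CPM in the WT libraries, of which the neuronal tubulin Tubb3, called lower, had 1.19, 1.54 and 3.92 CPM in the DKO libraries, against 71.2, 87.1 and 116 CPM in the WT libraries. Stmn2, a neuronal gene of the same list, was called higher at 1.14, 1.31 and 0.605 CPM in the DKO libraries, against 0, 0 and 0.0343 CPM in the WT libraries (adjusted p = 0.0246, edgeR), and the crest gene Sox10 had 10.9, 12.5 and 3.21 CPM in the DKO libraries, against 1.44, 4.26 and 0.767 CPM in the WT libraries and was not called. The summed levels were 35.3 to 43.0 CPM in the DKO libraries, against 20.1 to 27.7 CPM in the WT libraries for 7 muscle precursor genes, mostly Met, 0.324 to 1.62 CPM in the DKO libraries, against 0.160 to 1.29 CPM in the WT libraries for 8 macrophage genes, and 33.1 to 46.2 CPM in the DKO libraries, against 42.4 to 74.5 CPM in the WT libraries for 9 coelomic and flank mesoderm genes. Of these 9, Bnc1 was called lower, at 16.2, 15.6 and 28.1 CPM in the DKO libraries, against 48.2, 33.2 and 57.9 CPM in the WT libraries (adjusted p = 0.0410, edgeR). Bnc1 was the largest part of this sum in each library. Of the 8 tested, the DKO libraries lay wholly above the WT libraries in 3 and wholly below in 2. Hand1 was called higher, at 9.63, 7.03 and 4.87 CPM in the DKO libraries, against 0.278, 0 and 0 CPM in the WT libraries (adjusted p = 0.000772, edgeR), and so was Wt1, at 2.89, 1.54 and 1.93 CPM in the DKO libraries, against 0.313, 0.300 and 0.114 CPM in the WT libraries (adjusted p = 0.0106, edgeR). The part of these markers in the results below was not tested, and the calls made without WT 32 and DKO 41 are given with the counts.

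In DKO ectoderm 9 of the 58 guidance genes tested were called (15.5%), where called means an adjusted p under 0.05 after Benjamini-Hochberg adjustment over the 19126 genes tested. Over all those genes 863 (4.51%) were called. The share of members called lower was 7 of 58 (12.1%), against 2.81% of all genes, and 2 of 58 were called higher, against 1.70% of all genes. The 7 lower genes were the ligands Efna1, Sema4a, Sema6d and Ntn1 and the receptors Epha1, Epha2 and Plxnc1, and the 2 higher genes were the ligand Slit1 and the receptor Unc5a. At an adjusted p under 0.1 there were 14 members, against 7.97% of all genes. The 3 DKO libraries lay wholly above or below the 3 WT libraries in 17 members (29.3%), 13 of them lower and 4 higher, against 21.9% of all genes. The median log2 fold change, DKO minus WT, was -0.15 over the 58 members and 0.03 over all 19126 genes, with 33 members below 0 and 25 above. Bulk RNA cannot tell fewer cells of a type from less RNA per cell. Of the 9 calls, only that of Sema6d stood whichever of the 6 libraries was left out. Without WT 32 and DKO 41 together, 5 members were called, all lower: Efna1, Sema4a, Sema6d and Ntn1, and Sema3f, which was not called with all 6 libraries. Without both, the log2 fold change was -0.94 for Epha1, -1.20 for Epha2, -2.58 for Plxnc1, 4.32 for Slit1 and 2.09 for Unc5a, none called (adjusted p from 0.0669 to 0.129). Without the filter on low counts, which raises the number of genes tested to 29852, Efna1, Epha1, Epha2, Slit1 and Unc5a were not called (adjusted p from 0.0529 to 0.0748). Positions below are those of GRCm38 in the GENCODE M21 annotation.

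**Figure D1:**
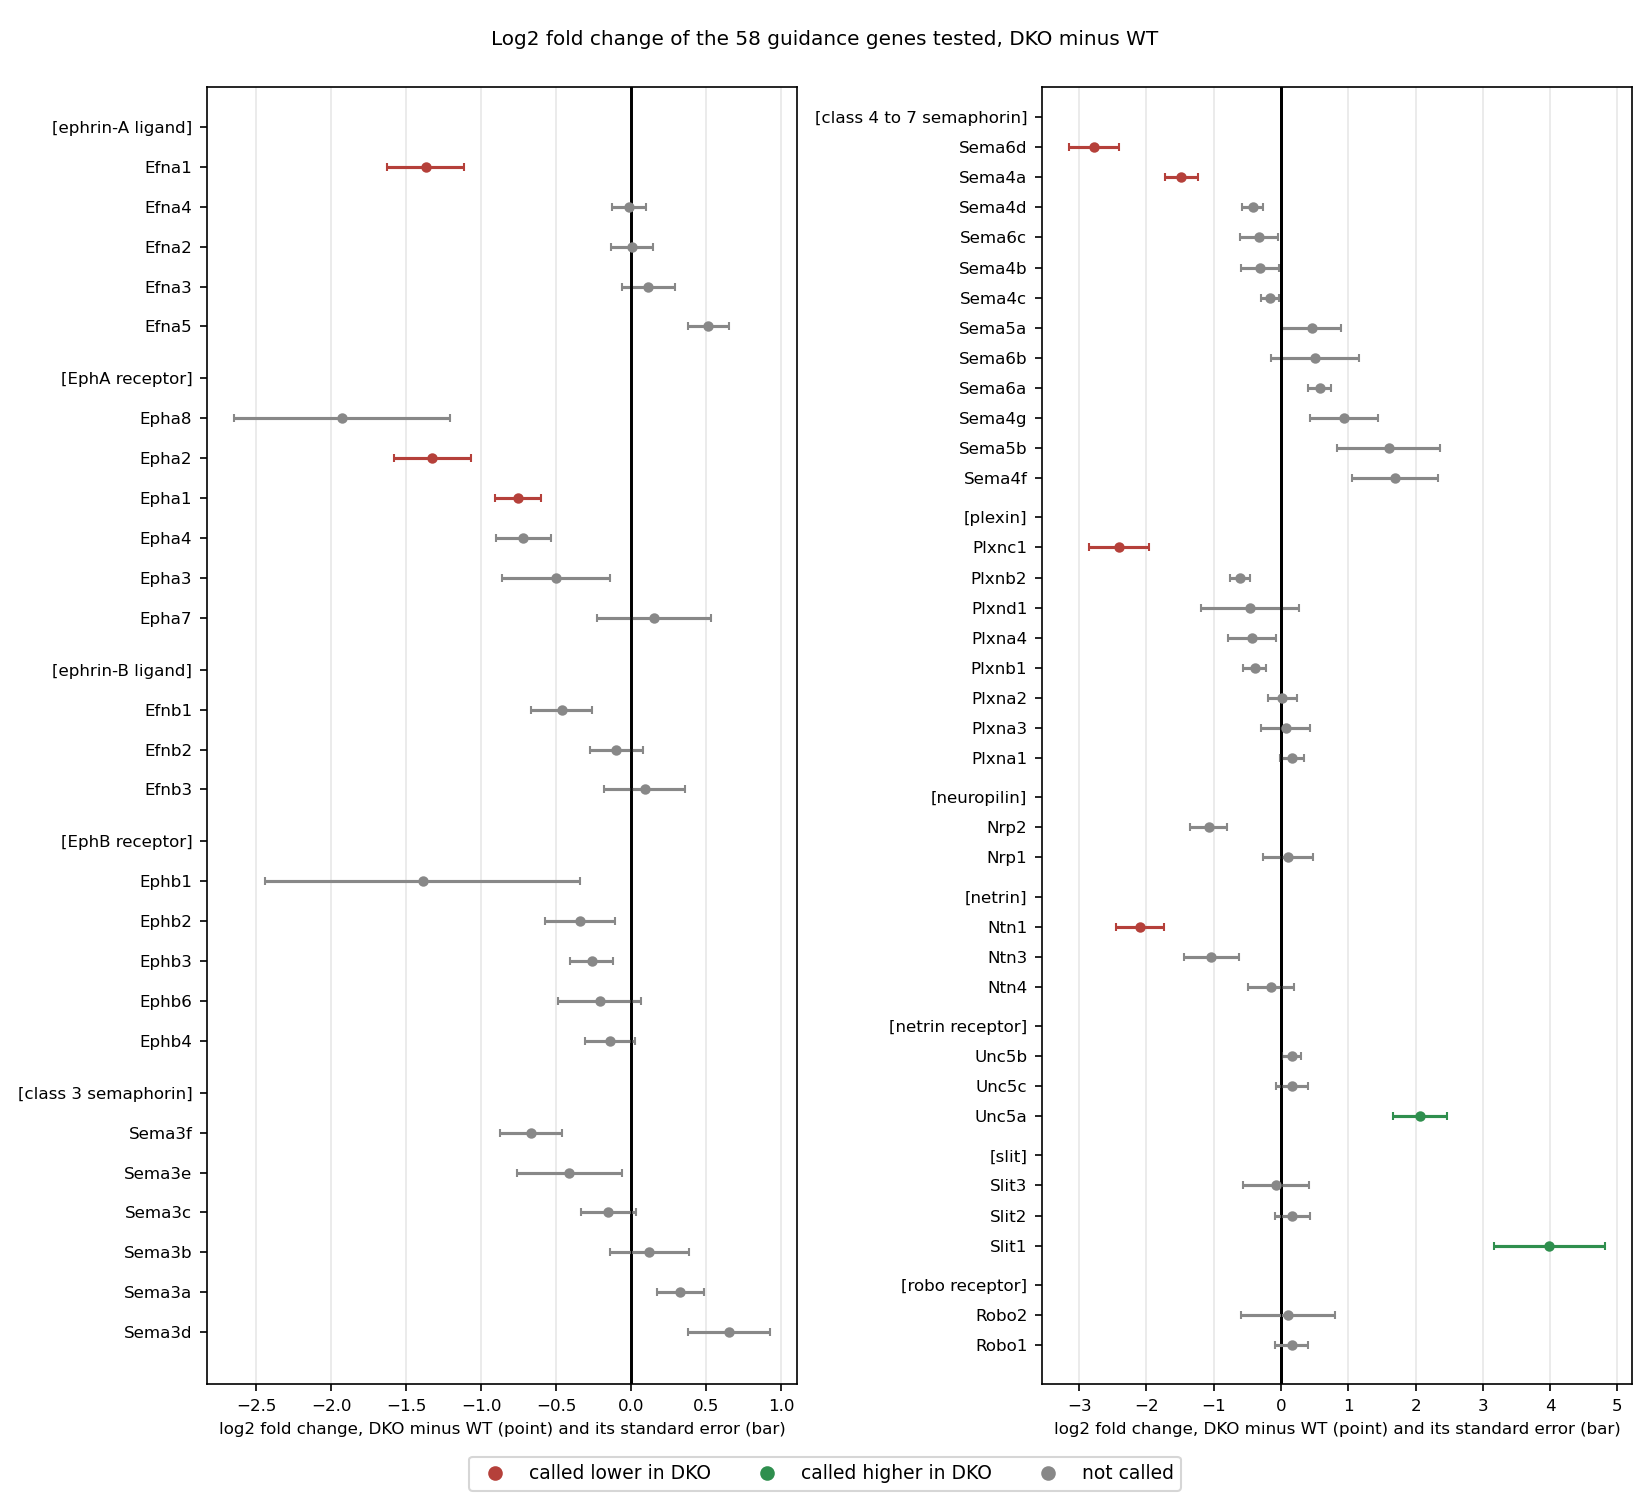
Log2 fold change of the 58 tested members, DKO minus WT, with its standard error, grouped by role on the vertical axis; left and right panels have their own horizontal scales. The 7 genes called lower lie between -2.78 and -0.76, and Unc5a and Slit1, called higher, lie at 2.06 and 3.99.

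Among the ephrin-A ligands, which are held in the membrane by a lipid anchor, Efna1 alone was called. Efna1, the usual partner of EphA1 and EphA2, had 50.03, 28.4 and 60.8 CPM in the DKO libraries, against 97.0, 144 and 121 CPM in the WT libraries. The groups did not overlap, and DKO 40 was the lowest library. Efna1 was 2.59-fold lower in DKO in edgeR's quasi-likelihood test (log2 fold change -1.37, SE 0.259, adjusted p = 0.0208). Leaving out WT 53 or WT 56 ended the call, with adjusted p-values of 0.0213 to 0.0867 over the 6 edgeR fits that leave out 1 library each. Efna1 (ENSMUSG00000027954.9) lies on chromosome 3 from 89271733 to 89281142, minus strand.

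The neighbouring ligand genes were not called. Efna1, Efna3 and Efna4 lie on the same strand of chromosome 3 within 66296 bases. Of the exon bases of Efna4 and Efna3, 168 and 344 overlap another gene on the opposite strand, while exons of Efna1 overlap none. Efna4 averaged 72.2 ± 2.16 CPM in DKO and 73.0 ± 4.36 CPM in WT (SD, n = 3 each), and Efna3 averaged 22.1 ± 3.60 CPM in DKO and 20.5 ± 1.54 CPM in WT (SD, n = 3 each); neither was called (adjusted p = 0.963 and 0.805, edgeR). The ratio of Efna1 to Efna4, a comparison chosen after the values were seen, was 0.592, 0.340 and 0.762 in the DKO libraries, against 1.16, 1.63 and 1.54 in the WT libraries on the CPM scale. Per kb of exon Efna1 stood below Efna4 in each DKO library and above it in each WT library. Efna2, on another chromosome, averaged 53.1 ± 6.60 CPM in DKO and 52.8 ± 4.03 CPM in WT (SD, n = 3 each; adjusted p = 0.989, edgeR). Efna5, a ligand of several EphA receptors, had a log2 fold change above 0 and did not pass the test, at 45.1, 45.9 and 41.3 CPM in the DKO libraries, against 34.0, 28.8 and 29.7 CPM in the WT libraries (log2 fold change 0.51, adjusted p = 0.0764, edgeR). Its libraries did not overlap between the groups, and DESeq2 called it higher.

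Set per length, the order of the ephrin-A genes differed between the groups. Efna4 came first in DKO at 45.1 CPM per kb, followed by Efna1 at 25.4 and Efna2 at 24.9 CPM per kb, whose ranges over the libraries overlapped. In WT Efna1 came first at 65.9 CPM per kb, and Efna4 and Efna2 followed at 45.7 and 24.8 CPM per kb, with no overlap between neighbours. The share of Efna1 in the summed ephrin-A level was 21.7% ± 6.78 in DKO and 43.0% ± 5.09 in WT (SD, n = 3 each). That sum was 109.6 to 122 CPM per kb in the DKO libraries, against 142 to 167 CPM per kb in the WT libraries.

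**Figure D2:**
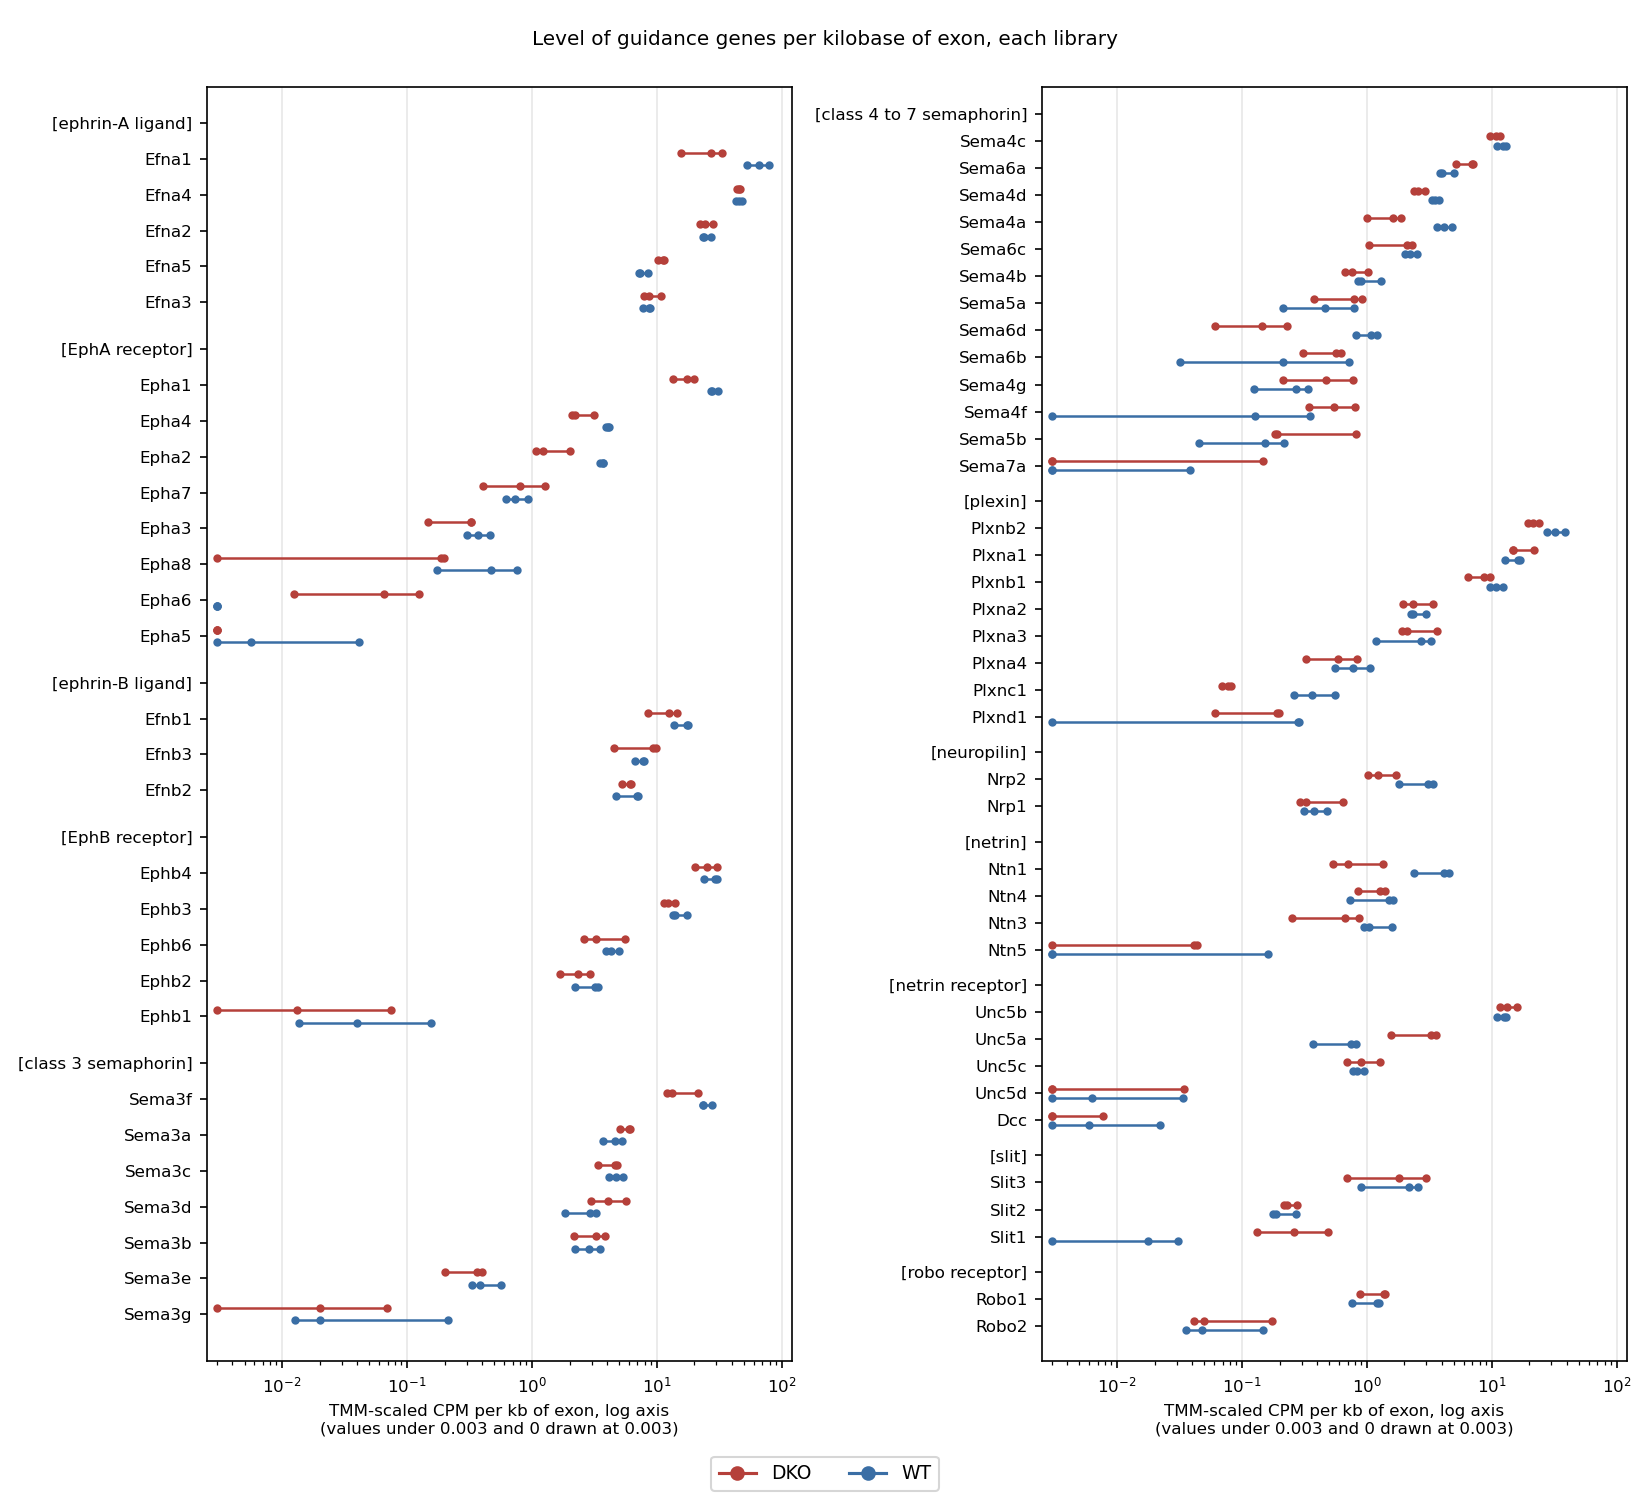
Level of the 65 members with a count, in CPM per kb of exon on a log axis, with each library as a point and a line over the range of its group; DKO is drawn above WT, and 0 is drawn at the left edge. Efna1 heads the ephrin-A ligands in WT at a mean of 65.9 CPM per kb and stands under Efna4 in DKO at 25.4 CPM per kb.

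Of the 6 EphA receptors tested, Epha1 and Epha2 were called lower and none higher, and the 6 had a median log2 fold change of -0.74. Epha1, a receptor of ephrin-A1 with a strong presence in epithelia, had 69.1, 52.98 and 77.3 CPM in the DKO libraries, against 108, 107 and 122 CPM in the WT libraries. All DKO libraries lay under all WT libraries, at 1.69-fold lower overall (log2 fold change -0.76, SE 0.154, adjusted p = 0.0283, edgeR). Leaving out DKO 17, DKO 40, WT 32, WT 53 or WT 56 ended the call, with adjusted p-values of 0.0252 to 0.135 over the 6 edgeR fits that leave out 1 library each. Epha1 (ENSMUSG00000029859.6) lies on chromosome 6 from 42358487 to 42373268, minus strand, and 236 of its exon bases overlap the neighbouring gene Zyx.

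Epha2, a receptor that ephrin-A1 also binds, had 9.51, 5.71 and 4.998 CPM in the DKO libraries, against 16.2, 17.2 and 17.2 CPM in the WT libraries. The WT libraries lay within about 1 CPM of each other and above all DKO libraries. Epha2 was 2.51-fold lower (log2 fold change -1.33, SE 0.254, adjusted p = 0.0223, edgeR). Leaving out DKO 40, WT 32, WT 53 or WT 56 ended the call, with adjusted p-values of 0.00933 to 0.113 over the 6 edgeR fits that leave out 1 library each. Epha2 (ENSMUSG00000006445.3) lies on chromosome 4 from 141301240 to 141329384, plus strand.

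Epha4, which binds ephrins of both classes, had 16.8, 25.1 and 17.7 CPM in the DKO libraries, against 32.8, 31.8 and 33.2 CPM in the WT libraries. Its groups did not overlap, but edgeR did not call it (log2 fold change -0.72, adjusted p = 0.0650), while DESeq2 called it lower. Epha8, at 0, 0.889 and 0.930 CPM in the DKO libraries, against 3.57, 0.821 and 2.22 CPM in the WT libraries, overlapped between the groups and was not called (adjusted p = 0.195, edgeR). Epha3 and Epha7 had 1.28 to 12.6 CPM in the DKO libraries, against 2.64 to 9.22 CPM in the WT libraries, and were not called. Epha1 made up most of the summed EphA level per kb in both groups, 76.1% ± 4.41 in DKO and 75.4% ± 1.24 in WT (SD, n = 3 each). The sum itself was 19.0 to 24.9 CPM per kb in the DKO libraries, against 36.2 to 40.4 CPM per kb in the WT libraries.

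The remaining EphA receptors were near or at 0. Epha6 had 29, 5 and 59 counts in the DKO libraries and 0 in each WT library, where 3 counts over the group would be 0.0127 CPM. The filter left it out of the edgeR test, DESeq2 called it higher, and 107 of its exon bases overlap another gene. Epha5 had 0 counts in the DKO libraries, against 60, 6 and 0 counts in the WT libraries, and was not tested. Epha10, a receptor without kinase activity, had no count in any library, which allows a level of up to 0.00617 CPM over the 6 libraries.

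The B class showed no call on either side. Efnb1, a transmembrane ligand, had 29.2, 43.2 and 50.05 CPM in the DKO libraries, against 61.3, 47.3 and 60.0 CPM in the WT libraries, with DKO 41 within the WT range (log2 fold change -0.46, adjusted p = 0.276, edgeR). Efnb2, the partner of EphB4, averaged 40.2 ± 3.74 CPM in DKO and 42.9 ± 9.06 CPM in WT (SD, n = 3 each), and Efnb3 averaged 25.1 ± 9.20 CPM in DKO and 23.7 ± 2.12 CPM in WT (SD, n = 3 each). Ephb4 was the EphB receptor with the highest level per length, 25.2 ± 5.02 CPM per kb in DKO and 27.7 ± 3.59 CPM per kb in WT (SD, n = 3 each), and Ephb3 came next with 12.5 ± 1.28 CPM per kb in DKO and 15.0 ± 2.25 CPM per kb in WT (SD, n = 3 each). All 5 EphB receptors had a log2 fold change below 0, from -1.39 for Ephb1 to -0.14 for Ephb4, and in none did the groups separate. Ephb1 had few reads, with 43, 7 and 0 counts in the DKO libraries, against 24, 6 and 96 counts in the WT libraries. Ephb2 averaged 29.1 ± 7.81 CPM in DKO and 36.8 ± 7.81 CPM in WT (SD, n = 3 each) and Ephb6, which lacks kinase activity, 14.4 ± 5.80 CPM in DKO and 16.6 ± 2.12 CPM in WT (SD, n = 3 each). The adjusted p of the 5 receptors ran from 0.384 to 0.764 in edgeR.

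Among the 6 class 3 semaphorins tested none was called, and their median log2 fold change was -0.02. Sema3f, which acts through neuropilin-2, had the highest level per length of the class, at 13.2, 12.1 and 21.3 CPM per kb in the DKO libraries, against 23.4, 23.3 and 27.6 CPM per kb in the WT libraries. In CPM it had 68.6, 62.8 and 111 CPM in the DKO libraries, against 121, 121 and 143 CPM in the WT libraries. The groups did not overlap, although DKO 41 lay close under the WT libraries, and Sema3f was not called (log2 fold change -0.67, SE 0.207, adjusted p = 0.116, edgeR). Without DKO 41 it was called lower (adjusted p = 0.0116, range 0.0116 to 0.362 over the 6 fits). Its share of the summed class 3 level per kb was 46.1% ± 4.49 in DKO and 61.7% ± 1.37 in WT (SD, n = 3 each).

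The other secreted semaphorins overlapped between the groups. Sema3a, a ligand of neuropilin-1 complexes, averaged 79.3 ± 8.17 CPM in DKO and 63.0 ± 10.9 CPM in WT (SD, n = 3 each; log2 fold change 0.33, adjusted p = 0.315, edgeR). Sema3d averaged 36.4 ± 11.9 CPM in DKO and 23.0 ± 6.40 CPM in WT (SD, n = 3 each; log2 fold change 0.65, adjusted p = 0.253, edgeR), and Sema3c averaged 30.5 ± 5.72 CPM in DKO and 33.9 ± 4.44 CPM in WT (SD, n = 3 each). Sema3e is known for binding plexin-D1 directly. Sema3b and Sema3e had means of 14.8 and 2.995 CPM in DKO and 13.7 and 3.96 CPM in WT. Sema3g had under 1 CPM in each library and was not tested.

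Among the 12 membrane-bound semaphorins of classes 4 to 7 tested, Sema6d and Sema4a were called lower and none higher. Sema6d, a transmembrane ligand of plexin-A1, had 1.52, 0.640 and 2.42 CPM in the DKO libraries, against 8.60, 12.6 and 11.4 CPM in the WT libraries. The highest DKO library was at 2.42 CPM and the lowest WT library at 8.60 CPM. Sema6d was 6.88-fold lower (log2 fold change -2.78, SE 0.372, adjusted p = 0.00499, edgeR). It was called in each of the 6 fits that leave out 1 library, with a log2 fold change between -3.30 and -2.44 and an adjusted p of at most 0.0329. Sema6d (ENSMUSG00000027200.17) lies on chromosome 2 from 124089969 to 124667770, plus strand, and its exons overlap no other annotated gene.

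Sema6a, a close relative that binds plexins A2 and A4, was not called lower. It had 61.1, 61.8 and 45.8 CPM in the DKO libraries, against 34.0, 35.1 and 43.7 CPM in the WT libraries (log2 fold change 0.58, adjusted p = 0.0985, edgeR), and DESeq2 called it higher. The ratio of Sema6d to Sema6a, chosen after the values were seen, was 0.0207, 0.00861 and 0.0439 in the DKO libraries, against 0.211, 0.299 and 0.217 in the WT libraries on the CPM scale. Each DKO ratio was under each WT ratio, which follows from the values above, since Sema6d separated lower in DKO and Sema6a higher.

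Sema4a, a transmembrane semaphorin that binds plexins of the B and D classes, had 5.40, 8.79 and 10.2 CPM in the DKO libraries, against 19.6, 22.5 and 25.9 CPM in the WT libraries. Its groups did not overlap, and it was 2.79-fold lower (log2 fold change -1.48, SE 0.248, adjusted p = 0.0127, edgeR). Leaving out DKO 40 or WT 56 ended the call, with adjusted p-values of 0.0168 to 0.0694 over the 6 edgeR fits that leave out 1 library each. Sema4a (ENSMUSG00000028064.17) lies on chromosome 3 from 88435959 to 88461182, minus strand, and 73 of its exon bases overlap the microRNA gene Mir7011. Per length Sema4a stood beside Sema6a and Sema4d in WT, at 4.20, 4.28 and 3.53 CPM per kb. In DKO it had 1.503 CPM per kb, under Sema6a at 6.41 and Sema4d at 2.64 CPM per kb.

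The other class 4 to 7 genes were not called by edgeR. Sema4c, a ligand of plexin-B2 and the member of these classes with the highest level per length, averaged 49.4 ± 4.59 CPM in DKO and 55.6 ± 4.63 CPM in WT (SD, n = 3 each; adjusted p = 0.577, edgeR). Sema4d, a ligand of plexin-B1, had 22.6, 19.8 and 18.3 CPM in the DKO libraries, against 26.7, 29.0 and 25.6 CPM in the WT libraries, with all DKO libraries below all WT libraries (log2 fold change -0.42, adjusted p = 0.200, edgeR). DESeq2 called Sema4d lower. Sema4f, Sema4g and Sema5b had the largest log2 fold changes above 0 in the class, 1.69, 0.94 and 1.60, at means under 5 CPM and with overlapping groups (adjusted p from 0.202 to 0.382, edgeR). Sema7a, a lipid-anchored ligand of plexin-C1, had 0, 37 and 0 counts in the DKO libraries, against 11, 0 and 0 counts in the WT libraries, and was not tested.

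Of the 8 plexins tested, Plxnc1 was called lower. It had 0.576, 0.640 and 0.684 CPM in the DKO libraries, against 3.06, 2.16 and 4.64 CPM in the WT libraries. The DKO libraries lay close together and all below the WT libraries, at 5.31-fold lower (log2 fold change -2.41, SE 0.447, adjusted p = 0.0201, edgeR). Leaving out DKO 17, DKO 40, WT 32 or WT 56 ended the call, with adjusted p-values of 0.0215 to 0.0934 over the 6 edgeR fits that leave out 1 library each. Plxnc1 (ENSMUSG00000074785.5) lies on chromosome 10 from 94790866 to 94944835, minus strand, and 115 of its exon bases overlap Gm48718. Plxnc1 made up 0.146% ± 0.0211 in DKO and 0.589% ± 0.130 in WT (SD, n = 3 each) of the summed plexin level per kb.

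Plxnb2, a receptor of class 4 semaphorins, had the highest plexin level per length, 21.5 ± 2.24 CPM per kb in DKO and 32.8 ± 5.68 CPM per kb in WT (SD, n = 3 each). In CPM it had 164, 149 and 184 CPM in the DKO libraries, against 247, 213 and 299.6 CPM in the WT libraries. The groups did not overlap, and edgeR put it just outside the threshold (log2 fold change -0.61, SE 0.147, adjusted p = 0.0514). Without WT 53 it was called lower (adjusted p = 0.0452, range up to 0.218 over the 6 fits), and DESeq2 called it lower with all libraries. Plxna1, a receptor for Sema6d and, with neuropilins, for class 3 semaphorins, averaged 155 ± 37.1 CPM in DKO and 138 ± 19.6 CPM in WT (SD, n = 3 each; adjusted p = 0.713, edgeR), and 970 of its exon bases overlap another gene. Per length the ranges of Plxnb2 and Plxna1 overlapped in DKO and did not overlap in WT.

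Plxnb1, the receptor of Sema4d, averaged 79.7 ± 15.9 CPM in DKO and 105 ± 12.8 CPM in WT (SD, n = 3 each; log2 fold change -0.39, adjusted p = 0.258, edgeR). Plxna2 and Plxna3 averaged 43.8 and 20.0 CPM in DKO and 43.2 and 18.8 CPM in WT, with overlapping groups. Plxna4 and Plxnd1 also overlapped between the groups and were not called. Plxnb3 had no count in any library.

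Nrp2, the neuropilin of Sema3f, had 14.6, 12.05 and 20.2 CPM in the DKO libraries, against 40.3, 21.3 and 36.5 CPM in the WT libraries. WT 53 was the lowest WT library and lay just above DKO 41, the highest DKO library. Nrp2 was not called with all 6 libraries (log2 fold change -1.07, SE 0.274, adjusted p = 0.0646, edgeR) and was called lower without WT 53 (adjusted p = 0.0314, range up to 0.237 over the 6 fits) and by DESeq2. Nrp1, the neuropilin of Sema3a, averaged 4.12 ± 1.90 CPM in DKO and 3.82 ± 0.806 CPM in WT (SD, n = 3 each; adjusted p = 0.920, edgeR). Per length Nrp2 stood above Nrp1 in both groups, at 1.32 against 0.421 CPM per kb in DKO and 2.76 against 0.391 CPM per kb in WT.

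Among the netrins Ntn1 was called lower. Ntn1, the founding netrin, had 3.37, 4.47 and 8.40 CPM in the DKO libraries, against 28.5, 15.1 and 25.9 CPM in the WT libraries. No DKO library reached the lowest WT library, and Ntn1 was 4.28-fold lower (log2 fold change -2.10, SE 0.354, adjusted p = 0.0130, edgeR). Leaving out DKO 40, WT 32 or WT 56 ended the call, with adjusted p-values of 0.0105 to 0.0841 over the 6 edgeR fits that leave out 1 library each. Ntn1 (ENSMUSG00000020902.12) lies on chromosome 11 from 68209364 to 68400823, minus strand, and its exons overlap no other annotated gene.

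Per length Ntn1 was the leading netrin in WT at 3.69 CPM per kb. In DKO it had 0.863 CPM per kb, with a range over the libraries that overlapped those of Ntn4 and Ntn3. The share of Ntn1 in the summed netrin level was 31.2% ± 7.20 in DKO and 59.2% ± 3.04 in WT (SD, n = 3 each). Ntn4, a netrin of basement membranes, averaged 4.40 ± 1.11 CPM in DKO and 4.80 ± 1.81 CPM in WT (SD, n = 3 each; adjusted p = 0.868, edgeR). Ntn3 had 1.28, 4.43 and 3.38 CPM in the DKO libraries, against 8.14, 5.32 and 4.89 CPM in the WT libraries, groups that did not overlap, and no call (log2 fold change -1.03, adjusted p = 0.218, edgeR), and 228 of its exon bases overlap another gene. Ntn5 had under 1 CPM in each library and was not tested.

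No receptor of netrin-1 was called lower, and 1 was called higher. Unc5a, one of the receptors through which netrin repels, had 6.51, 14.9 and 13.5 CPM in the DKO libraries, against 3.40, 1.53 and 3.11 CPM in the WT libraries. Its groups did not overlap, DKO 17 was the lowest DKO library, and Unc5a was 4.18-fold higher (log2 fold change 2.06, SE 0.399, adjusted p = 0.0230, edgeR). Leaving out DKO 40, DKO 41, WT 32, WT 53 or WT 56 ended the call, with adjusted p-values of 0.00773 to 0.103 over the 6 edgeR fits that leave out 1 library each. Unc5a (ENSMUSG00000025876.15) lies on chromosome 13 from 54949411 to 55006018, plus strand, and 34 of its exon bases overlap Hk3.

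Unc5b was the netrin receptor with the highest level per length, 13.6 ± 2.20 CPM per kb in DKO and 12.1 ± 0.942 CPM per kb in WT (SD, n = 3 each), and did not pass the test (adjusted p = 0.646, edgeR). The share of Unc5a in the summed level of the netrin receptors was 16.0% ± 5.63 in DKO and 4.62% ± 1.41 in WT (SD, n = 3 each). Unc5c averaged 18.3 ± 5.73 CPM in DKO and 16.3 ± 1.64 CPM in WT (SD, n = 3 each; adjusted p = 0.791, edgeR). Dcc, the receptor of attraction, had 0, 0 and 9 counts in the DKO libraries, against 25, 5 and 0 counts in the WT libraries, and Unc5d had 0, 0 and 28 counts in DKO, against 5, 0 and 27 counts in WT. Neither was tested.

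Slit1 was called higher and had the largest log2 fold change of the 58 members tested. It had 1.54, 2.90 and 0.784 CPM in the DKO libraries, against 0.104, 0 and 0.183 CPM in the WT libraries, from 128, 222 and 70 counts in the DKO libraries, against 9, 0 and 16 counts in the WT libraries. Its level stayed low in DKO, at 0.294 ± 0.181 CPM per kb in DKO and 0.0162 ± 0.0155 CPM per kb in WT (SD, n = 3 each). Slit1 was 15.9-fold higher (log2 fold change 3.99, SE 0.829, adjusted p = 0.0193, edgeR), a value that rests on few WT counts. Leaving out DKO 40, WT 32, WT 53 or WT 56 ended the call, with adjusted p-values of 0.00844 to 0.140 over the 6 edgeR fits that leave out 1 library each, and without WT 56 the log2 fold change was 4.78. With the alternative quasi-likelihood setting of edgeR (legacy=TRUE), Slit1 was not called either. Slit1 (ENSMUSG00000025020.11) lies on chromosome 19 from 41600257 to 41743665, minus strand, and its exons overlap no other annotated gene.

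The other slits and their receptors did not pass the test. Slit3, the slit with the highest level per length, had 4.20, 10.95 and 17.998 CPM in the DKO libraries, against 15.6, 5.48 and 13.2 CPM in the WT libraries, a spread within each group wider than the difference between their means. Slit2 averaged 6.09 ± 0.791 CPM in DKO and 5.38 ± 1.32 CPM in WT (SD, n = 3 each). Robo1, the Robo receptor with the highest level, averaged 20.0 ± 4.73 CPM in DKO and 17.7 ± 4.40 CPM in WT (SD, n = 3 each; adjusted p = 0.809, edgeR), and Robo2 averaged 1.49 ± 1.26 CPM in DKO and 1.30 ± 1.04 CPM in WT (SD, n = 3 each). Robo3, known from commissural neurons, and Robo4, known from endothelium, had no count in any library.

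**Figure D3:**
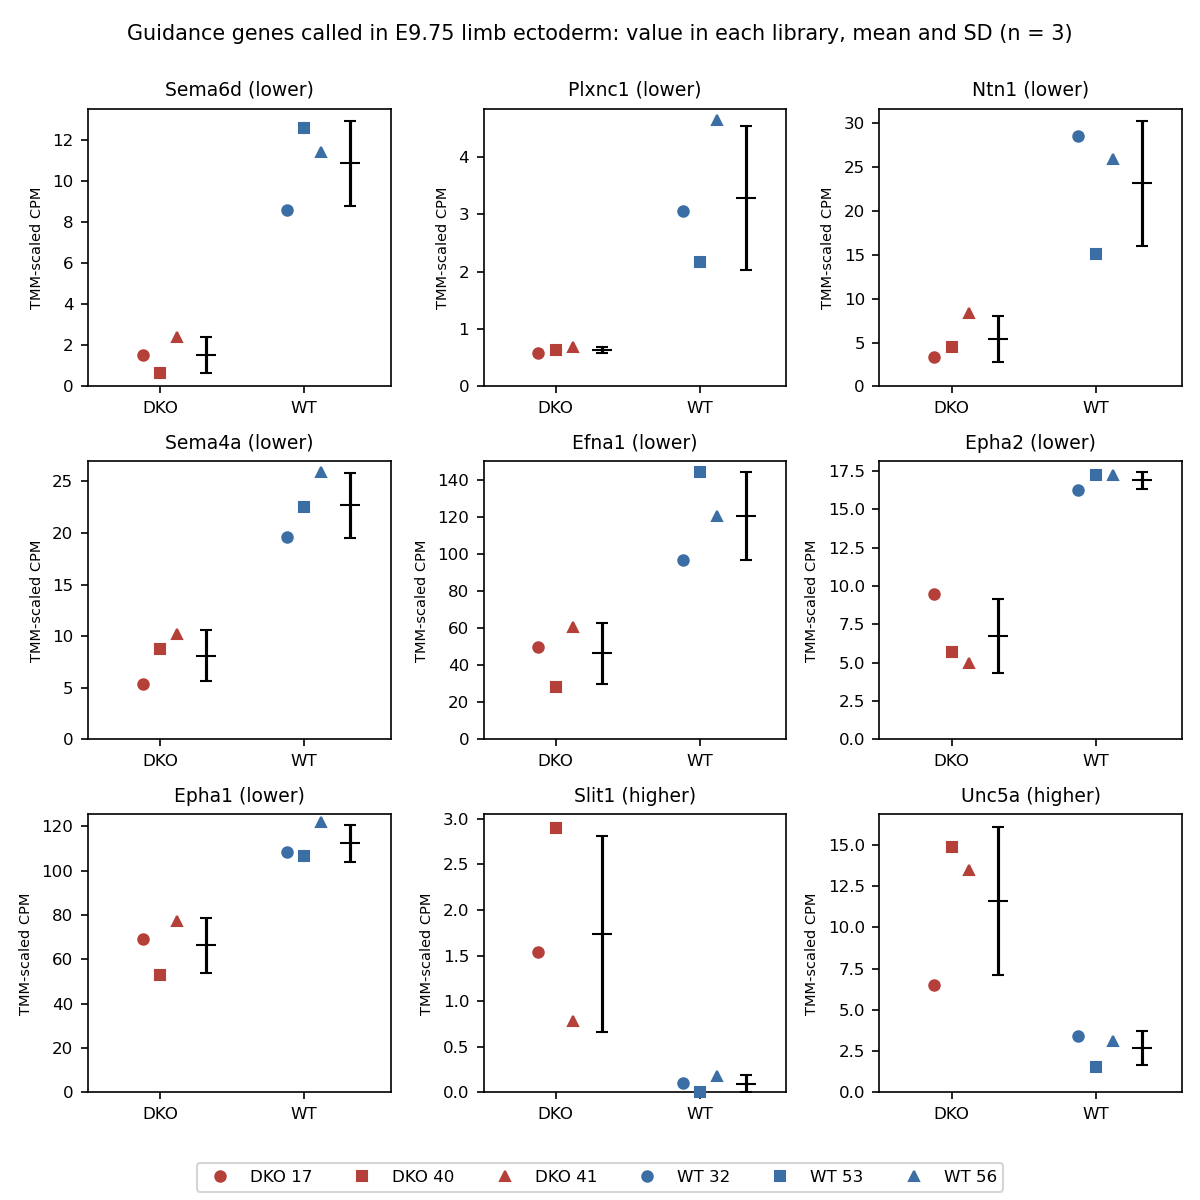
CPM of the 9 called members in each library, DKO left and WT right, on axes of their own that start at 0, with the mean and SD of 3 libraries as a black bar. In each panel the DKO and WT points do not overlap; Sema6d lies between 0.640 and 2.42 CPM in DKO and between 8.60 and 12.6 CPM in WT.

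**Figure D4:**
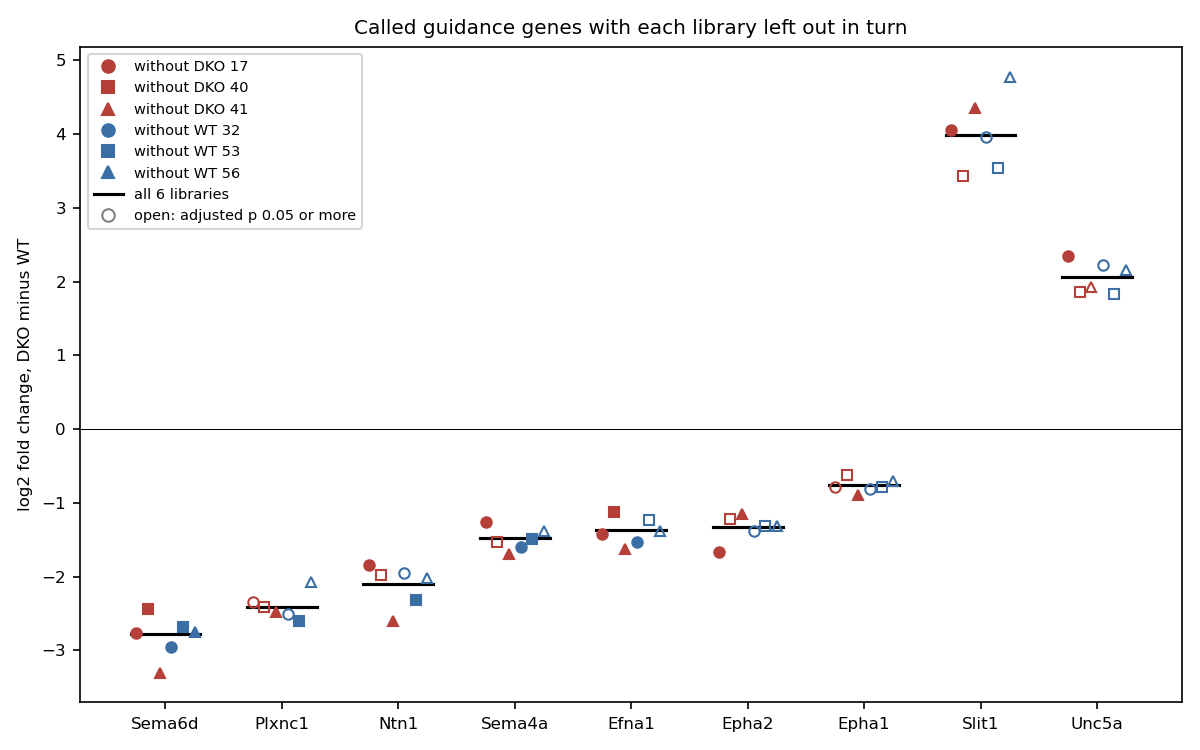
Log2 fold change, DKO minus WT, of the 9 called members with each library left out in turn, with the value from all 6 libraries as a black line. Filled symbols have an adjusted p under 0.05 and open symbols do not; the symbols keep the sign of the black line throughout, and Sema6d alone is filled in all 6 fits.

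Co-receptors, further ligands and intracellular effectors of the same pathways were listed from textbook knowledge, 90 genes in all, of which 85 were tested. The list was drawn up with earlier results of these data known, so its share of calls only describes the list. In DKO ectoderm 4 were called higher and 7 lower, together 12.9% against 4.51% of all genes tested. The plexin effectors had 3 of 19 called higher and 1 lower, the Eph and ephrin effectors 1 of 23 higher and 1 lower, and the Robo effectors 0 of 14. The relatives of netrin and their binding partners had 2 of 15 called lower, the adhesion and growth factor co-receptors 3 of 14, and neither had a call higher. Without WT 32 and DKO 41, Rnd2, Dpysl3 and Rnd3 were called of these 11, and Flrt3 and Ptk7, which were not called with all 6 libraries, were called lower.

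Downstream of the plexins, Rnd3, an atypical small GTPase that acts on the actin cytoskeleton, had 94.4, 81.2 and 83.1 CPM in the DKO libraries, against 160.5, 164 and 173 CPM in the WT libraries. It was 1.92-fold lower (log2 fold change -0.94, SE 0.112, adjusted p = 0.00288, edgeR) and was called in all 6 fits that leave out 1 library. Its relative Rnd2, which binds plexins, was called in the other direction, at 30.8 ± 7.18 CPM in DKO and 13.4 ± 1.88 CPM in WT (SD, n = 3 each; log2 fold change 1.21, SE 0.223, adjusted p = 0.0193, edgeR), and 226 of its exon bases overlap another gene. Dpysl3, a collapsin response mediator of the kind that relays semaphorin signals to the cytoskeleton, had 42.3, 42.3 and 41.9 CPM in the DKO libraries, against 17.7, 9.33 and 13.8 CPM in the WT libraries. Dpysl3 was 3.05-fold higher (log2 fold change 1.61, SE 0.212, adjusted p = 0.00466, edgeR), also in all 6 of those fits. Dpysl5, of the same family, averaged 40.1 ± 3.69 CPM in DKO and 22.7 ± 2.96 CPM in WT (SD, n = 3 each; log2 fold change 0.82, SE 0.160, adjusted p = 0.0238, edgeR), and its call was lost with any library left out.

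Chn2, a chimaerin that inactivates Rac, averaged 19.9 ± 1.22 CPM in DKO and 10.4 ± 1.90 CPM in WT (SD, n = 3 each; log2 fold change 0.95, SE 0.194, adjusted p = 0.0283, edgeR), and 617 of its exon bases overlap another gene. Adam10, a membrane protease that sheds ephrins among other proteins, had 42.1, 35.1 and 40.8 CPM in the DKO libraries, against 68.0, 58.01 and 84.2 CPM in the WT libraries. Adam10 was 1.78-fold lower (log2 fold change -0.84, SE 0.165, adjusted p = 0.0249, edgeR). The call of Rnd2 ended without DKO 40, WT 32 or WT 56 (highest adjusted p 0.116), that of Chn2 without DKO 17, DKO 40, DKO 41, WT 32 or WT 56 (highest adjusted p 0.159) and that of Adam10 without DKO 40, DKO 41, WT 32 or WT 56 (highest adjusted p 0.127), each in edgeR.

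Among the surface partners, Vegfa, which binds neuropilins as well as its own receptors, averaged 16.6 ± 0.172 CPM in DKO and 31.1 ± 6.65 CPM in WT (SD, n = 3 each; log2 fold change -0.91, SE 0.192, adjusted p = 0.0315, edgeR). Alcam, an immunoglobulin adhesion protein, averaged 3.04 ± 0.425 CPM in DKO and 8.32 ± 1.86 CPM in WT (SD, n = 3 each; log2 fold change -1.46, SE 0.280, adjusted p = 0.0224, edgeR). Cntn2, a lipid-anchored adhesion protein known from axons, averaged 14.3 ± 5.18 CPM in DKO and 43.9 ± 16.96 CPM in WT (SD, n = 3 each; log2 fold change -1.61, SE 0.325, adjusted p = 0.0268, edgeR), and Dscaml1, a relative of the netrin receptor Dscam, 0.142 ± 0.125 CPM in DKO and 1.65 ± 0.332 CPM in WT (SD, n = 3 each; log2 fold change -3.51, SE 0.636, adjusted p = 0.0114, edgeR). Lrrc4c, the surface partner of netrin-G1, had 0 counts in the DKO libraries, where 3 counts over the group would be 0.012 CPM, against 0.371, 0.790 and 0.469 CPM in the WT libraries (adjusted p = 0.0387, edgeR). All 5 were called lower. The call of Vegfa ended without DKO 17, DKO 40, DKO 41, WT 32 or WT 56 (highest adjusted p 0.148), and that of Alcam without DKO 17, DKO 40, DKO 41, WT 53 or WT 56 (highest adjusted p 0.116), in edgeR. The call of Cntn2 ended without DKO 17, DKO 40, WT 32 or WT 56 (highest adjusted p 0.112), that of Dscaml1 without DKO 40 or WT 56 (highest adjusted p 0.0608), and that of Lrrc4c without any 1 library. Cntn2, Dscaml1 and Lrrc4c are best known from neurons, and of the 12 neural and neural crest markers Tubb3 was called lower and Stmn2 higher; the part of neural cells in these values was not tested.

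**Figure D5:**
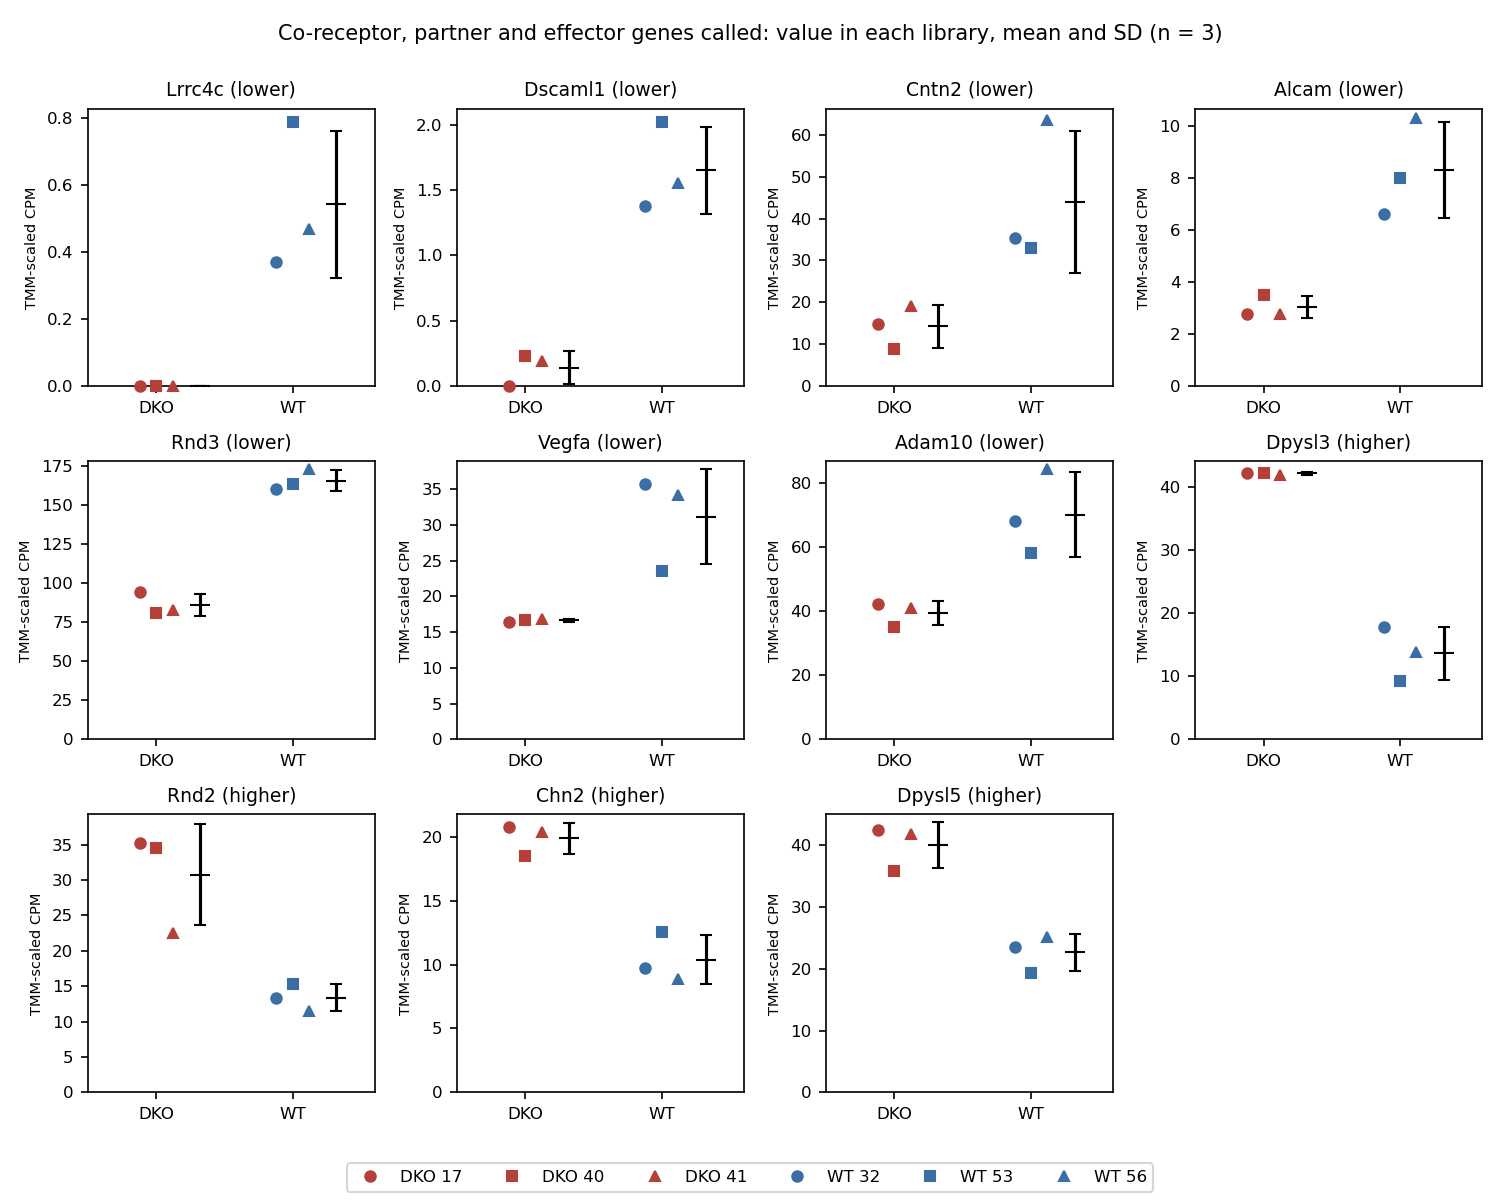
CPM of the 11 called partner and effector genes in each library, DKO left and WT right, on axes of their own that start at 0, with the mean and SD of 3 libraries as a black bar. The 7 genes of the first 2 rows up to Adam10 are lower in DKO and the last 4 higher; Dpysl3 lies at 42.2 CPM on average in DKO and 13.6 CPM in WT.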

How the data were processed

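RNA of mouse forelimb-bud ectoderm was sequenced in 10 samples, of which the 6 at E9.75 were used; the E10.5 samples and the chromatin immunoprecipitation were not analysed here. The table that the authors deposited holds raw counts for each gene, as whole numbers. The tools named in the submitters' processing notes are HISAT2, StringTie, Cufflinks, DESeq2, fastp and FastQC, and the builds GRCm38 and mm10; versions and the counting step are not given in the sources used. The columns were taken as the E9.75 groups, since the table is that of the DKO comparison.

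Changes were tested with edgeR 4.0.16 in R 4.3.3 (filterByExpr, TMM, robust glmQLFit with legacy=FALSE, quasi-likelihood F test), with Benjamini-Hochberg adjustment over 19126 genes and a threshold of 0.05. The test was checked on simulated data. Log2 fold changes are DKO minus WT, and the SE was taken as their size over the square root of F. Means are given with the SD over 3 libraries. Exon lengths, positions and overlaps came from GENCODE M21 (GRCm38), which matched 99.53% of identifiers. Floors of 3 counts cover counting error only, since PCR copies are counted as reads. Each pair of libraries differed beyond sampling noise. DESeq2 1.42.0, RLE scaling, legacy=TRUE, no filter on low counts and libraries left out were tried as alternatives.

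The members, lists and settings were chosen with earlier results of these data known. Values were given for members called, for those with an adjusted p under 0.1, for those with at least 20 CPM on average in a group, and for the leading member of each role; members with no count were named, and values of others were added after they were seen. Of the other genes, those called among the 90 partners were named.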

Additional observations from a re-analysis of the deposited data

How the results depend on the processing

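With RLE scaling the same 9 guidance genes and 11 partner genes were called. With legacy=TRUE, 1 guidance gene was called higher, Slit1 being lost, and 4 partner genes lower. DESeq2 called 5 guidance genes higher and 11 lower, including all 9, and 8 and 15 partner genes. Without a filter on low counts 0 guidance genes were called higher and 4 lower (Sema6d, Sema4a, Plxnc1 and Ntn1), and 1 and 3 partner genes. Without WT 32 and DKO 41 together, 0 guidance genes were called higher, and 2 partner genes were called higher and 3 lower. Over the fits that leave out 1 library, 0 to 2 guidance genes were called higher and 1 to 8 lower, and 1 to 4 partner genes higher and 1 to 7 lower. The number of genes called overall also changed, with 863 in the fit reported, 546 with legacy=TRUE, 1737 in DESeq2, 412 without the filter, 377 without WT 32 and DKO 41, and 247 to 918 with 1 library left out. The cause was not tested, beyond fewer libraries or more genes tested. None of the 9 guidance genes and 11 partner genes called changed sign.

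Only part of the guidance genes were compared gene by gene across these settings. These were members called, with an adjusted p under 0.1, with at least 20 CPM on average in a group, or leading their role. Among them the sign changed in 9, none of them called by any fit. Other members whose values are given, such as Nrp1 and Robo2, were not compared in this way. Efna2, near 0, had a log2 fold change of -0.0050 in DESeq2, -0.0018 with RLE and -0.0100 without the filter. Without WT 32 and DKO 41, Plxna2 was at -0.32, Efna3 at -0.12, Plxna1 at -0.035, Efnb3 at -0.091 and Plxna3 at -0.23. Over the fits that leave out 1 library the log2 fold change ran from -0.24 to 0.18 for Plxna2, -0.034 to 0.21 for Efna3, -0.068 to 0.025 for Efna4, -0.062 to 0.26 for Plxna1, -0.093 to 0.082 for Efna2, -0.66 to 0.32 for Slit3, -0.12 to 0.37 for Efnb3, -0.023 to 0.34 for Robo1 and -0.30 to 0.34 for Plxna3.

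No paired analysis was possible because the labels tie no library to a litter. The columns also carry none of the labels' replicate numbers. Low members such as Slit1, with 0 to 16 counts in the WT libraries, rest on few reads.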
